A study of Mus musculus with 6 samples.

Results

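Smoc1, Tmie, Xkrx, Insl5, Gramd3 and Bambi-ps1 are 6 of the 11 genes whose transcripts read lower in Flvcr-deleted than in control CD4+CD8+ double-positive thymocytes at a limma adjusted p under 0.05, out of 8808 genes tested. They were chosen by name for that difference, so their differences are described here without a test. Each of the 8 probes that the platform annotation gives to these genes, under the current symbol or a synonym, was taken from the 45281 probes of the array. All 6 genes had a probe that passed the detection filter, and 7 of the 8 probes passed it.

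RNA came from sort-purified mouse thymocytes labelled Flvcr-/- or Flvcr+/+, all on a C57BL/6 background, with 3 arrays for each genotype. The labels name no Cre or promoter for the deletion, no age and no treatment. Whether each sample stands for its own animal is not labelled, and the p-values therefore measure only the spread between these samples, which may be technical. Signals are given as log2 of the background-corrected, quantile-normalised intensity, and the number of arrays limits their precision.

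Double-positive thymocytes carry both CD4 and CD8, rearrange the T cell receptor alpha chain and are tested for receptor specificity in the thymic cortex. Flvcr1 encodes a heme exporter of the cell surface. The 6 genes belong to no common pathway. Smoc1 encodes a secreted calcium-binding matrix protein of the SPARC family, known in frog embryos as an antagonist of BMP signalling. Tmie encodes a small membrane protein of the mechanotransduction channel of inner ear hair cells. Xkrx belongs to the XK-related membrane proteins, a family in which Xkr8 scrambles membrane phospholipids in dying cells. Insl5 encodes a relaxin-family peptide hormone that acts through the receptor Rxfp4 and is best known from endocrine cells of the colon. Gramd3 encodes a protein with a lipid-binding GRAM domain. Bambi-ps1 is a transcribed pseudogene of Bambi, whose product is a decoy receptor that blocks TGF-beta family signalling.

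The 6 genes lie on 6 different chromosomes, Smoc1 on chromosome 12, Tmie on 9, Xkrx on X, Insl5 on 4, Gramd3 on 18 and Bambi-ps1 on 2, and none shares chromosome 1 with Flvcr1. Promoter sequence from RefSeq (GRCm38.p6) was at hand for 3 of them. The 250 bases before the start site are shown for Tmie, Xkrx and Insl5, read 5′ to 3′ on the gene's strand, because they let the starts of genes with a shared direction of change be compared. The Tmie and Insl5 start sites are the annotated 5′ ends of their genes, but the Xkrx start site of the table lies 22538 bases inside the gene, whose 5′ end is at position 134185497 of chromosome X. Insl5 has 2 start sites in the table, and the window before the upstream one is shown. Capitals mark a match to any of 5 motifs searched on both strands, which were the E-box CAGCTG, the nuclear receptor half-site AGGTCA, the RUNX site TGTGGT, the TCF site CTTTGAT and the antioxidant response core TGACNNNGC.

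Tmie promoter, chr9:110880074-110880323, minus strand: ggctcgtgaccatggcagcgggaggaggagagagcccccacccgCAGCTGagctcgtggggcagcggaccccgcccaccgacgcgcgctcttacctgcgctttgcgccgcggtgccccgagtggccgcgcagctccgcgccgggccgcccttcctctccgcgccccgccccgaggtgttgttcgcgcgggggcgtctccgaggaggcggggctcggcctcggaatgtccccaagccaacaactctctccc

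Xkrx promoter, chrX:134162960-134163209, minus strand: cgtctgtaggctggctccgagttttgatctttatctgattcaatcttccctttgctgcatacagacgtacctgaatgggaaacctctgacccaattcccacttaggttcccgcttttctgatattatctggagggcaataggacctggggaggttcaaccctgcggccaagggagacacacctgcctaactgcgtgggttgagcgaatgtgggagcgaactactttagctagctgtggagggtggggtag

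Insl5 promoter, chr4:103027272-103027521, minus strand: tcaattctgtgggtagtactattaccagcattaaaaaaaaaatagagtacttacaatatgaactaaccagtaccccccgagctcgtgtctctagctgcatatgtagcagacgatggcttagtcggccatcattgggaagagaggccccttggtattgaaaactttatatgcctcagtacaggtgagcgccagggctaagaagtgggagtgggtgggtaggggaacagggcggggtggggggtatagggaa

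The 3 promoters had no motif of this search in common, and no matches overlapped. The Tmie promoter held 1 match, a CAGCTG E-box that starts 206 bases before the start site (position -206), and 13.0% of the 32851 promoters of the table hold that motif. The Xkrx and Insl5 windows held 0 matches, against shares of 14.0% of all promoters for AGGTCA, 14.0% for TGTGGT, 3.21% for CTTTGAT and 10.2% for TGACNNNGC. Base composition differed too. The Tmie window was 74.8% G and C with 33 CpG dinucleotides, the Xkrx window 52.0% with 8 and the Insl5 window 48.8% with 6, beside medians of 52.4% and 6 over all promoters.

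The targeted gene was read first. Flvcr1 stood at 9.92, 10.45 and 10.13 (log2) on Flvcr-deleted replicates 1, 2 and 3, against 11.01, 11.28 and 10.93 on control replicates 1, 2 and 3. The groups did not overlap, and the signal remained well above background on every Flvcr-deleted array. A further Flvcr1 probe was detected on 0 arrays of either group. The sources used here do not place the detected probe inside or outside the deleted part, and its level is no strict check of the labels.

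Smoc1 had the largest difference of the 6 genes and also the largest spread. Its signal was 9.77, 8.28 and 8.29 on Flvcr-deleted replicates 1, 2 and 3, against 10.07, 11.13 and 11.28 on control replicates 1, 2 and 3. Flvcr-deleted replicate 1 was the highest of its group and control replicate 1 the lowest of its own, so that only 0.30 log2 units separated the groups. The means were 8.78 ± 0.86 in Flvcr-deleted and 10.83 ± 0.66 in control cells (SD, n = 3 each), a difference of -2.05 (SE 0.354), or 4.14-fold lower. The deposited intensities of the same probe were 941.2, 404.3 and 454.7 in Flvcr-deleted cells, against 1229.6, 2604.7 and 2295.9 in control cells. In these bulk samples, fewer cells of a type and less RNA per cell cannot be told apart.

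Tmie, the hair cell channel gene, read 7.48, 7.56 and 7.02 on Flvcr-deleted replicates 1, 2 and 3, against 9.18, 9.10 and 8.30 on control replicates 1, 2 and 3. Control replicate 3 was the low array of its group, 0.74 above the highest Flvcr-deleted array. The means were 7.35 ± 0.29 and 8.86 ± 0.49 (SD, n = 3 each) in Flvcr-deleted and control cells, 2.85-fold apart, with a difference of -1.51 (SE 0.243).

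Xkrx had the widest gap between the groups of these genes and a small spread within them. It read 8.35, 7.90 and 8.15 on Flvcr-deleted replicates 1, 2 and 3, against 9.20, 9.43 and 9.48 on control replicates 1, 2 and 3. The nearest arrays of the 2 groups were 0.85 apart, while the ranges within groups were 0.45 in Flvcr-deleted and 0.28 in control cells. The means were 8.13 ± 0.23 and 9.37 ± 0.15 (SD, n = 3 each), a difference of -1.24 (SE 0.177), or 2.36-fold lower in Flvcr-deleted cells. Its other probe, annotated under an older name, was detected on 0 arrays and read -0.07 between the groups, so it neither adds to nor contradicts this value.

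Insl5, the relaxin-family hormone gene, read 9.39, 8.95 and 8.94 on Flvcr-deleted replicates 1, 2 and 3, against 10.15, 10.01 and 9.86 on control replicates 1, 2 and 3. Again Flvcr-deleted replicate 1 lay above the other arrays of its genotype, and the gap between groups was 0.47. The means were 9.09 ± 0.26 and 10.01 ± 0.15 (SD, n = 3 each) in Flvcr-deleted and control cells. The difference of -0.92 (SE 0.167), or 1.89-fold lower, was the smallest of the 6 genes with this processing. Gramd3 had the smallest without background correction and with the deposited log2 values (-0.75, against -0.79 for Insl5) and when a gene's probes were averaged (-0.77, against -0.92 for Insl5).

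Gramd3 rests on a dim probe, and its 2 probes differed. The brighter one read 5.75, 6.31 and 6.08 on Flvcr-deleted replicates 1, 2 and 3, against 7.65, 7.87 and 7.11 on control replicates 1, 2 and 3. All 6 arrays detected it, and the means of 6.05 ± 0.28 in Flvcr-deleted and 7.55 ± 0.39 in control cells (SD, n = 3 each) differed by -1.50 (SE 0.254), or 2.82-fold. The other probe was detected on 2 Flvcr-deleted and 2 control arrays. It read 6.10, 5.03 and 5.63 in Flvcr-deleted cells, against 5.29, 5.75 and 5.88 in control cells, so its groups overlapped, with a difference of -0.05 (SE 0.316). Without background correction the brighter probe's difference was -0.75, and the mean of both probes gave -0.77.

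Bambi-ps1, the pseudogene, read 11.07, 10.16 and 10.61 on Flvcr-deleted replicates 1, 2 and 3, against 12.16, 11.61 and 11.47 on control replicates 1, 2 and 3. Its means were 10.61 ± 0.45 and 11.75 ± 0.36 (SD, n = 3 each), a difference of -1.14 (SE 0.21), or 2.20-fold lower in Flvcr-deleted cells. The parent gene Bambi was not detected. Its single probe was detected on 0 Flvcr-deleted and 0 control arrays, at intensities of 128.6, 109.4 and 123.3 in Flvcr-deleted cells and 130.5, 142.8 and 114.0 in control cells. The deposited intensities of the pseudogene's probe were 2169.8, 1190.5 and 1792.9 in Flvcr-deleted cells, against 4842.9, 3591.7 and 2603.8 in control cells. Pseudogene and parent are similar in sequence, and which of the transcripts the Bambi-ps1 probe binds was not tested, since no probe sequence was used here.

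**Figure D1:**
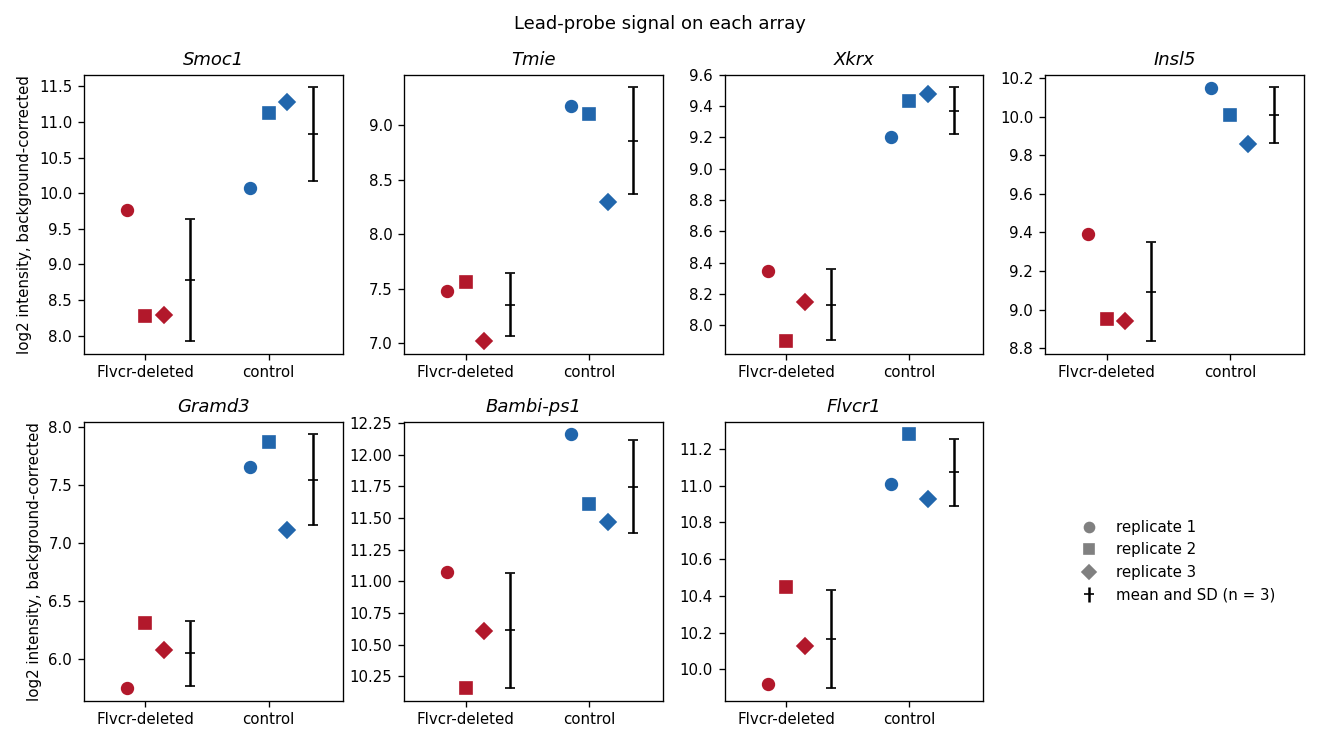
Log2 background-corrected intensity (vertical axes, each on its own scale) of the lead probe of the 6 genes and Flvcr1 on each array, Flvcr-deleted in red and control in blue; black bars are the mean and SD of 3 arrays. In each panel the groups do not overlap, which for the 6 genes is favoured by their choice for this difference. Smoc1 has the largest spread, with 9.77 on Flvcr-deleted replicate 1 close to 10.07 on control replicate 1.

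**Figure D2:**
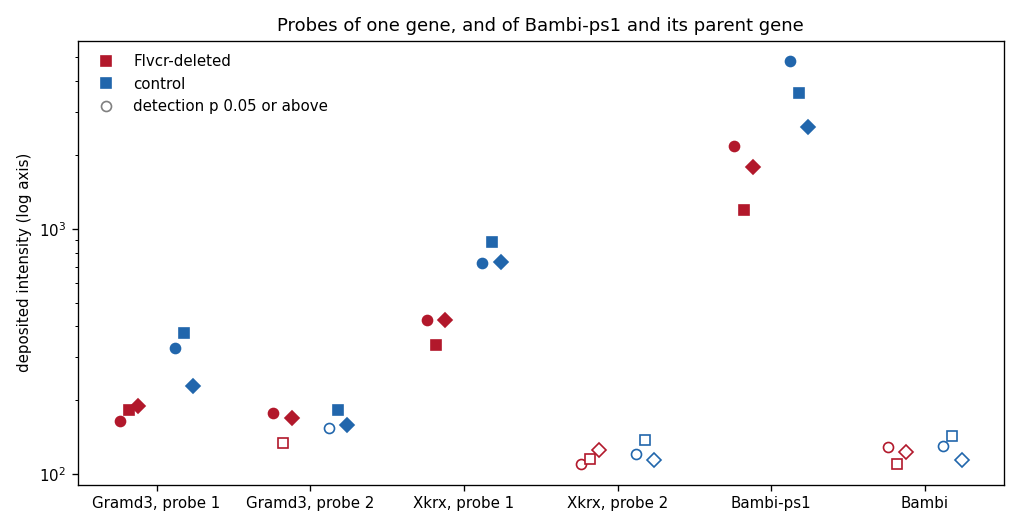
Deposited intensity (log axis) of both probes of Gramd3 and of Xkrx, of the Bambi-ps1 probe and of the probe of its parent gene Bambi, on each Flvcr-deleted (red) and control (blue) array; open symbols have a detection p of 0.05 or above. Every array of the second Xkrx probe and of the Bambi probe is open, and the second Gramd3 probe has open symbols in both groups.

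All 6 genes had groups that did not overlap, which the choice of the genes by adjusted p favours, so it lends no support. Over all 8808 genes, 0.125% were called lower (adjusted p under 0.05), 0.0227% were called higher and 4.36% had groups that did not overlap with Flvcr-deleted cells lower. The choice itself depended on single arrays. With replicate 2 or 3 of the Flvcr-deleted cells or replicate 2 of the control cells left out, 0 of the 6 genes passed an adjusted p of 0.05, and 2 passed without control replicate 1. Of the 6, 5 passed without Flvcr-deleted replicate 1 and 4 without control replicate 3, while 0 passed without the variance trend. When probes of a gene were averaged 3 passed, with the strict detection filter 4, and 5 each without background correction, with the deposited log2 values and with the replicate number as a block.

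The 6 genes shared the direction of the difference between genotypes but not their order among the arrays of a genotype. Flvcr-deleted replicate 1 was the highest array of its group for Smoc1, Xkrx, Insl5 and Bambi-ps1, by 0.99 above the group mean for Smoc1 and by 0.45 for Bambi-ps1. For Gramd3 the same array was the lowest of its group, 0.30 below the mean (deviation -0.30). In control cells, replicate 3 was the lowest array for Tmie, Insl5, Gramd3 and Bambi-ps1 and the highest for Smoc1 and Xkrx.

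Correlations over the 6 arrays are given as a description, since 3 arrays a group are too few to test and the pooled value follows from the choice of genes. Pooled over both genotypes, Pearson's r lay between 0.69 and 0.96 for the 15 pairs of these genes and between 0.66 and 0.98 for the 6 pairs with Flvcr1. After the group means were removed, r ran from -0.66 to 0.88 over the 15 pairs, with a median of 0.30, and 9 pairs were above 0. The highest values were those of Smoc1 with Xkrx (0.88), Insl5 with Bambi-ps1 (0.87), Tmie with Gramd3 (0.66), Tmie with Insl5 (0.57) and Smoc1 with Insl5 (0.42). The lowest were those of Xkrx with Gramd3 (-0.66), Smoc1 with Gramd3 (-0.60) and Tmie with Xkrx (-0.42). With Flvcr1, the deviations of Gramd3 had r = 0.86 and those of Tmie 0.40. The other 4 genes lay between -0.68 for Bambi-ps1 and -0.46 for Smoc1.

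**Figure D3:**
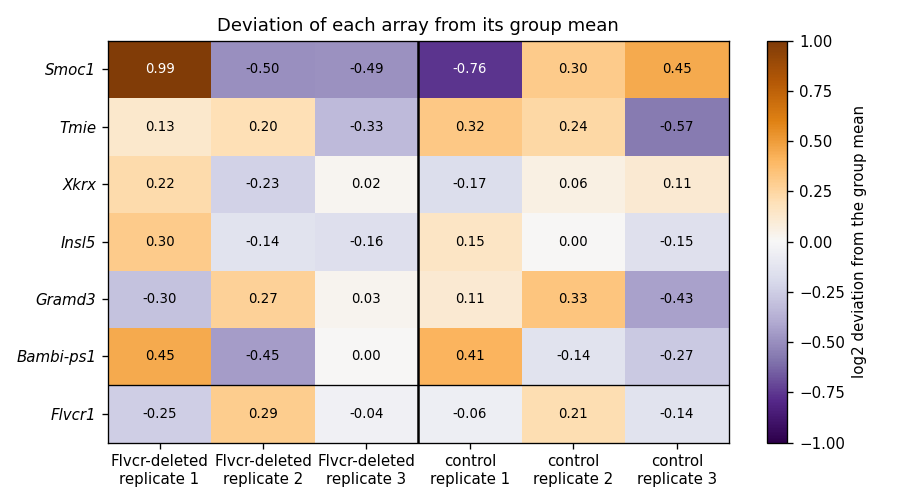
Log2 deviation of each array (columns) from the mean of its own group for the 6 genes and Flvcr1 (rows), orange above and purple below the mean. Flvcr-deleted replicate 1 is above its group mean for Smoc1 (0.99), Insl5 (0.30) and Bambi-ps1 (0.45) and below it for Gramd3 (-0.30) and Flvcr1 (-0.25).

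The sexes of the animals are not labelled, and the arrays differed in Xist, the RNA that silences an X chromosome in female cells. Xist was at 4.72, 9.99 and 9.81 on Flvcr-deleted replicates 1, 2 and 3, against 9.55, 9.49 and 4.72 on control replicates 1, 2 and 3. It was detected on 2 arrays of each genotype, and the array where it was not detected was the highest of its group for Smoc1 and for the X-linked Xkrx in both genotypes. Between the arrays with Xist detected, the differences were -2.32 for Smoc1, -1.86 for Tmie, -1.29 for Xkrx, -1.14 for Insl5, -1.56 for Gramd3 and -1.50 for Bambi-ps1. Between the 1 Flvcr-deleted and the 1 control array where Xist was not detected, they were -1.51, -0.81, -1.14, -0.47, -1.36 and -0.41 for the same genes in that order. All 6 genes read lower within both kinds of array. This was fixed in advance, because every Flvcr-deleted array lay below every control array for each of these genes. It is therefore no check, and the part of sex in the sizes was not tested.

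Markers of double-positive cells were present and none passed the test. Of 12 listed, 9 were tested and 0 passed, among them Cd8b1, the CD8 beta chain, at 14.83 ± 0.16 in Flvcr-deleted and 14.88 ± 0.02 in control cells (SD, n = 3 each). The Cd8a probe was detected on 0 arrays, although these cells were sorted on CD8. Of 7 B and plasma cell markers, Ms4a1, Pax5 and Jchain were detected on 0 arrays. Igkc, the kappa light chain constant region, was at 8.03, 8.77 and 8.51 on Flvcr-deleted replicates 1, 2 and 3, against 12.20, 11.62 and 11.57 on control replicates 1, 2 and 3 (difference -3.36, limma adjusted p = 5.09e-07). The other tested member, the B cell receptor component gene Cd79b, read 10.41 ± 0.23 in Flvcr-deleted and 10.15 ± 0.29 in control cells (SD, n = 3 each; difference 0.26, limma adjusted p = 1). The summed background-corrected intensity of that list ran from 1636 to 1898 in Flvcr-deleted and from 4015 to 5790 in control cells, but without Igkc the ranges overlapped, at 1216 to 1652 in Flvcr-deleted and 983.0 to 1445 in control cells. Dendritic cell and macrophage markers summed to 5862 to 6086 and 5938 to 6965 in Flvcr-deleted and control cells, with 3 of 7 tested and 0 called. Cst3, a protease inhibitor gene, made up most of this sum and read -0.07 between the groups. Without it the sums were 108.2 to 137.6 in Flvcr-deleted and 165.9 to 296.4 in control cells. Cd74, the invariant chain of MHC class II, read 5.83 ± 0.22 in Flvcr-deleted and 6.96 ± 0.70 in control cells (SD, n = 3 each), with groups that did not overlap (difference -1.13, limma adjusted p = 0.559), and the class II gene H2-Eb1 read -0.66 (limma adjusted p = 1). Itgax, Flt3 and Adgre1 were at background on all arrays.

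Other marker lists showed no called gene. Mature single-positive markers, 3 of 5 tested, summed to between 113.0 and 178.3 in Flvcr-deleted and between 178.2 and 336.8 in control cells, and all 3 read lower without passing the test. Klf2, a regulator of egress, was at -0.67 and the chemokine receptor gene Ccr7 at -0.76 (limma adjusted p = 1 for both). Nkg7, a granule protein gene of cytotoxic cells, was detected on 0 Flvcr-deleted and 3 control arrays, so it passed the filter only through the control arrays. Its mean signal was lower by a factor of at least 1.49 (limma adjusted p = 0.853). S1pr1 was at background on all arrays. Double-negative markers, 3 of 5 tested, summed to between 123.5 and 245.8 in Flvcr-deleted and between 243.4 and 269.8 in control cells, with the adhesion receptor gene Cd44 at -0.90 (limma adjusted p = 0.388) and Il2ra, the CD25 chain, at 0.27 (limma adjusted p = 1). Il7r, the interleukin 7 receptor gene, was detected on 0 Flvcr-deleted and 3 control arrays and likewise passed the filter only through the control arrays. Its mean signal was lower by a factor of at least 1.16. The fitted difference of -0.36 (SE 0.275) did not pass (limma adjusted p = 1). Epithelial and stromal markers, 2 of 9 tested, overlapped between groups at 703.8 to 1059 in Flvcr-deleted and 838.3 to 899.2 in control cells. Among them Pecam1, an endothelial adhesion molecule, read -0.05 and Ccl25, a chemokine gene of thymic epithelium, 0.52 (limma adjusted p = 1 for both), and Epcam, Krt5, Krt8, Foxn1, Col1a1, Col3a1 and Pdgfra were at background on all arrays. Globin transcripts varied within both genotypes, with Hbb-b1 at 7.86, 12.32 and 12.47 on Flvcr-deleted replicates 1, 2 and 3, against 12.07, 10.45 and 10.46 on control replicates 1, 2 and 3. Flvcr-deleted replicate 1, the highest array of its group for 4 of the 6 genes, thus had the lowest Hbb-b1, and Xist was not detected on it. The part of these cell types and of this array in the differences was not tested.

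None of the tested genes from the families and pathways around the 6 genes passed the test. In all, 9 lists held 105 further genes, of which 45 were tested, 23 reading higher and 22 lower, with a median difference of 0.00, beside 0.01 over all genes tested. By limma, 0 of the 45 passed an adjusted p of 0.05, which says little when 0.148% of all genes passed. Of the 45, 1 had an unadjusted p under 0.05, a smaller share than the 4.63% of all genes. Groups did not overlap for 6 of them, or 13.3%, against 9.59% of all genes.

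The BMP and TGF-beta pathway, to which Smoc1 and Bambi belong as inhibitors, was measured at 22 of 44 genes, 10 higher and 12 lower, with a median of -0.01 and 0 called. Among ligands, 3 of 10 were tested, with Bmp5 at 0.25 (SE 0.318) and Bmp7 at -0.12 (SE 0.197). Among receptors, 8 of 12 were tested, with the activin receptor gene Acvr1b at 0.46 (SE 0.248) and Tgfbr1, a type I TGF-beta receptor, at -0.17 (SE 0.168). Of 13 inhibitors, 4 were tested and all 4 read lower, with the ubiquitin ligase gene Smurf1 at -0.53 (SE 0.279) and the corepressor gene Ski at -0.24 (SE 0.19). Of 9 transducers and targets, 7 were tested. Id1, a BMP target, stood at -0.56 (SE 0.302) and Smad5, which carries BMP signals, at 0.26 (SE 0.174). The adjusted p was 1 for each of these genes, and both Id2 (-0.01) and Id3 (0.13), which are bright in thymocytes, had groups that overlapped.

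The relatives of the remaining genes likewise held no called gene. For the SPARC family of Smoc1, 0 of 7 further members passed the detection filter. A probe annotated SPARC in capitals did pass it, but it was not matched to this list and is described below. For the hair cell machinery of Tmie, 4 of 16 were tested, and the channel subunit genes Tmc1, Tmc2 and Lhfpl5 were among those that did not pass the detection filter. Of the same list, Tmc6, a paralogue known in lymphocytes, stood at -0.23 (SE 0.142) and Cib3 at 0.35 (SE 0.367). Of 15 genes of the XK family and phospholipid scrambling, 7 were tested. The scramblase gene Xkr8 read 6.54, 6.32 and 6.65 on Flvcr-deleted replicates 1, 2 and 3, against 6.09, 5.95 and 5.99 on control replicates 1, 2 and 3. Bsg, whose product pairs with Xkr8, was detected on 3 Flvcr-deleted and 0 control arrays, so it passed the filter only through the Flvcr-deleted arrays. Its mean was at least 1.28-fold higher on the background-corrected scale (limma adjusted p = 1), a bound set by the lowest detected signal of each control array.

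Of 12 relaxin family genes, receptors and processing enzymes, 3 were tested. Insl6, a relative of Insl5, stood at 0.22 (SE 0.156) and Insl3 at -0.12 (SE 0.253), while Rxfp4, the receptor of Insl5, did not pass the detection filter. Of 11 GRAM domain and membrane contact genes, 9 were tested, with Gramd4 at 0.40 (SE 0.267) and Orai1, the pore of the store-operated calcium channel, at -0.19 (SE 0.163). All of these had an adjusted p of 1.

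**Figure D4:**
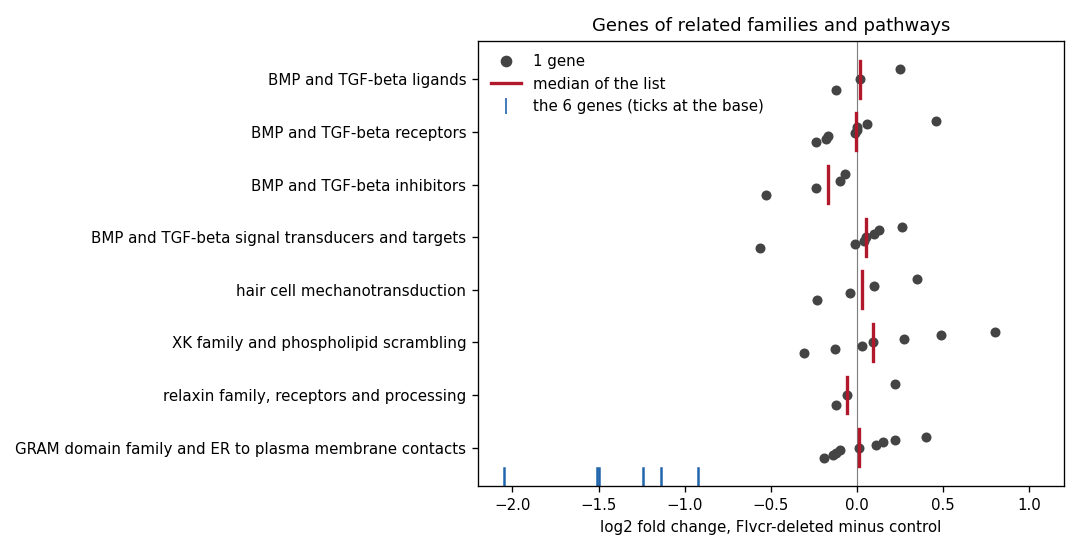
Log2 difference, Flvcr-deleted minus control (horizontal axis), of each tested gene of the related families and pathways (points), with the median of each list in red; blue ticks at the base mark the 6 genes. The list genes lie between -0.56 and 0.80, and the 6 genes between -2.05 and -0.92. The SPARC and SMOC family has no point because 0 of its further members were tested. A probe annotated SPARC in capitals (-1.47) was not matched to that list and is not shown.

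Neighbours on the chromosome were examined after the values had been seen. Within 1 Mb of the 6 genes, 63 other genes were tested and 0 were called. With 0.148% of all genes called, 0 calls among 63 genes say little. Of the 63, 5 had an unadjusted limma p under 0.05, a larger share than the 4.63% of all genes. The medians lay between -0.09 around Smoc1 and 0.05 around Xkrx. Closest to Smoc1, Srsf5 read -0.48 and Adam4 0.26. Around Tmie the nearest tested genes Ccdc12 and Als2cl read 0.04 and -0.04. Next to Insl5, Wdr78 read -0.42 and Tctex1d1 -0.11. Phax beside Gramd3 read -0.03, and Slc28a2 and Slc28a2b on either side of Bambi-ps1 read -0.07 and -0.31.

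Around Xkrx 1 neighbour stood out. Tmem35a, which encodes a chaperone of nicotinic acetylcholine receptors, lies 2 tested genes away and read 5.80, 5.27 and 5.75 on Flvcr-deleted replicates 1, 2 and 3, against 6.82, 6.74 and 6.88 on control replicates 1, 2 and 3. The groups did not overlap, but the difference of -1.21 (SE 0.247) did not pass (limma adjusted p = 0.0994), and the probe was detected on 2 Flvcr-deleted and 3 control arrays. Trmt2b, which lies between the 2 genes, read -0.26, and Cstf2 on the other side of Xkrx read 0.20.

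**Figure D5:**
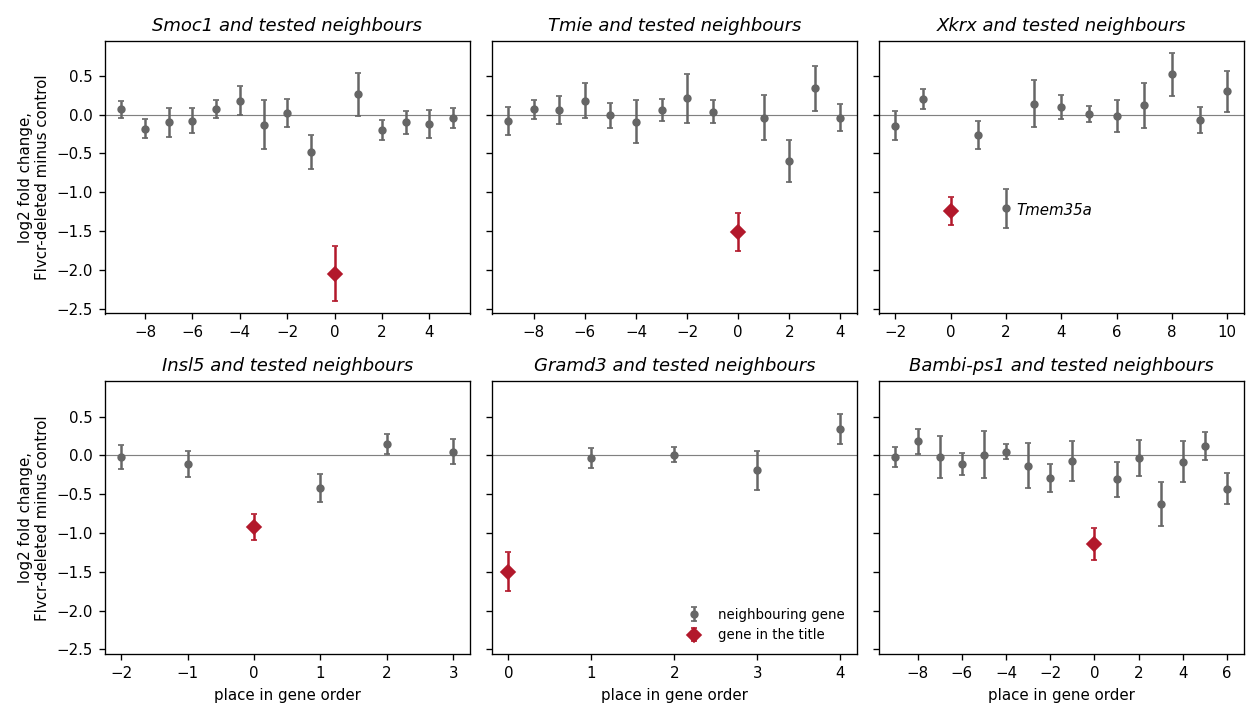
Log2 difference, Flvcr-deleted minus control, with its SE (vertical axis) of each of the 6 genes (red, place 0) and of the tested genes within 1 Mb in their order along the chromosome (grey; horizontal axis). Around Xkrx, Tmem35a (-1.21) lies close to Xkrx (-1.24), and the other neighbours of the 6 genes lie between -0.63 and 0.52.

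Tmem35a was also the gene whose pattern over the 6 arrays was most like that of Xkrx among the 8808 genes. With each gene centred on its own mean, the root mean square difference was 0.114 log2 units, followed by 0.183 for Ptpn14, a tyrosine phosphatase gene on chromosome 1. Likeness over 6 arrays is a description, because a search over this many genes always returns close matches. The Ptpn14 probe was detected on 0 Flvcr-deleted and 3 control arrays, so it passed the filter only through the control arrays. After background correction its mean was lower by a factor of at least 1.61 (limma adjusted p = 0.651).

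For Tmie the nearest genes were Ccl4, a chemokine gene (0.195), and Gramd3 (0.256), and for Gramd3 they were Tmie (0.256) and Ccl4 (0.295). Ccl4 read 6.30, 6.17 and 6.00 on Flvcr-deleted replicates 1, 2 and 3, against 7.74, 7.91 and 6.68 on control replicates 1, 2 and 3. Like Tmie and Gramd3 it was low on control replicate 3, and its difference of -1.29 (SE 0.293) did not pass (limma adjusted p = 0.188). For Insl5 the nearest were Il17re, an interleukin 17 receptor subunit gene (0.147), and Scn4b, a sodium channel subunit gene (0.160), with differences of -0.86 and -0.84. For Bambi-ps1 they were Insl5 (0.232) and Scn4b (0.243).

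For Smoc1 the nearest patterns were more distant on this measure, which grows with the size of a gene's differences between arrays. The first was a probe that the annotation names SPARC in capitals (0.520), and the next was Xkrx (0.637). Their correlations with Smoc1 over all arrays were 0.939 and 0.941, against 0.984 for Xkrx with Tmem35a and 0.93 for Gramd3 with Ccl4. The SPARC probe read 5.11, 4.86 and 4.85 on Flvcr-deleted replicates 1, 2 and 3, where it was detected on 0 arrays, against 5.74, 6.88 and 6.60 on control replicates 1, 2 and 3, where it was detected on all 3. It thus passed the filter only through the control arrays. After background correction its mean was lower by a factor of at least 2.00 (limma adjusted p = 0.137). Of 3 further probes annotated as Sparc, none passed the filter, so which transcript the SPARC probe reads is uncertain.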

How the data were processed

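Biotin-labelled RNA of 3 Flvcr-deleted and 3 control samples was hybridised to Illumina bead arrays, grouped by sample title. Per the file headers, 1 deposited table gave linear probe intensities, not scaled between arrays, and detection p-values. The authors' deposited log2 values matched quantile-normalised intensities on that scale to within 5e-09, and the submitters' processing notes name lumi. Array medians of intensity ran from 126.1 to 149.1, and 15307 to 15792 probes were detected per array. No genome build was given in the sources used here. RefSeq tables (GRCm38.p6) gave current names, gene order and promoters.

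Intensities were corrected and normalised with neqc (limma 3.58.1, R 4.3.3, offset 16). The filter asked for detection (p under 0.05) on 3 or more arrays, which 15448 probes met, and the brightest of these on average stood for its gene. The groups were compared in limma (lmFit, then eBayes with trend, 2-sided), with Benjamini-Hochberg adjustment across the filtered probes and a threshold of 0.05. Differences are Flvcr-deleted minus control. The offset understates those of dim probes. Each factor given as "at least" compares group means, with signals of the undetected group raised to the lowest detected signal of their array. It carries no sampling error. Genes with such a factor passed the filter only through the group where they are higher, which favours their direction. Tested on 15509 simulated probes, the fit called 22.4%, 79.1% and 98.5% of bright probes changed 1.5-fold, 2-fold and 4-fold, with 7 false calls. The simulated spread was capped below that of Smoc1, and no dim probe was changed. These shares therefore do not cover Smoc1, or dim probes such as those of Gramd3 and of many list genes.

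The genes and lists were chosen with earlier results of these data known. Named were the 6 genes, Flvcr1, the 2 list genes with the smallest p, the 2 genes nearest in pattern, and leading and called markers. Neighbours, probes of Bambi and Sparc, Id2, Id3, the other markers and undetected genes were named after their values were seen. Same-numbered arrays did not deviate together in every pair (correlations -0.148, 0.0927 and 0.109). Of the 3 Flvcr-deleted arrays, 2 correlated best with the control array of their own number. These values do not settle whether the numbers pair the samples, and the fit used no pairing.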

Additional observations from a re-analysis of the deposited data

How the results depend on the processing

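All 6 genes and Flvcr1 read lower in Flvcr-deleted cells under each of the 16 alternatives run. The 6 genes were chosen for this direction on the same arrays, so it lends no support. Changing the detection filter, dropping the variance trend or adding the replicate block or Xist detection left each difference as it was. Those settings are therefore no check of direction. No background correction and the deposited log2 values gave the same differences and count as 1 alternative. Without background correction, and with the deposited log2 values, the differences shrank to -1.07 for Tmie, -0.98 for Xkrx and -0.75 for Gramd3, and the mean of a gene's probes gave -0.77 for Gramd3. With each array left out in turn, they lay between -2.55 and -1.80 for Smoc1, -1.79 and -1.34 for Tmie, -1.35 and -1.12 for Xkrx, -1.06 and -0.84 for Insl5, -1.72 and -1.33 for Gramd3, and -1.37 and -0.91 for Bambi-ps1. Of all genes, 13 were called (2 higher, 11 lower). The count was 1 without the variance trend, 30 with array weights (10 higher, 20 lower) and between 2 and 12 with an array left out. Scaling to a common median gave 4 higher and 11 lower. With the replicate number as a block it was 12, 1 higher and 11 lower, 5 of them among the 6 genes. Xist detection as a covariate, chosen after the data were seen, gave 13. No gene of the pathway lists was called under any of these alternatives. No chip was named, so a chip block was not run. Signal close to background and the disagreement of its 2 probes both limit the Gramd3 value.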
